A study of Drosophila melanogaster with 2 samples.

Results

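Peaks of tagged Zelda at the starts of noncoding RNA genes were weaker than those at protein-coding starts and stronger than those near neither kind of start. They numbered 669 of the 30000 peaks in the pooled relaxed list, and 64 of them, 9.57%, were also in the authors' thresholded list of 2876 peaks, against 9.59% of all relaxed peaks. The strongest lay upstream of lncRNA:CR44619 and of lncRNA:CR31044, the host transcript of mir-279 and mir-996. Among the 64, 6 noncoding genes that carry microRNAs were represented, the hosts of mir-8, mir-275, mir-281-1, mir-281-2, mir-282 and mir-4951 among them. The starts of let7C, of roX2 and of the host of the mir-309 cluster had no relaxed peak. Summits were spread over the window around noncoding starts, with 24.1% within 100 bp of the start, where coding-start summits had 44.4%. Of the 669 peaks 20 held the Zelda word CAGGTAG near the summit, and of the 64 thresholded ones 5 did.

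The peaks were chosen by position alone. A peak was kept when its summit lay within 500 bp of an annotated transcript start of a gene with the Ensembl biotype ncRNA and more than 500 bp from every protein-coding transcript start. The signal played no part in the choice. The rule was applied to the pooled dm6 list, where 9258 summits lay within 500 bp of a coding start and 20073 lay near neither kind of start. The biotype takes in microRNA genes, so the label of long noncoding RNA does not hold for every peak. A transcript of 200 nt or more started within 500 bp of 610 of the 669 summits, and no such transcript started near the other 59. By the gene nearest to the summit, 487 peaks belonged to genes named lncRNA, 112 to genes named asRNA (antisense RNA), 51 to microRNAs, 5 to snoRNA host genes and 14 to noncoding genes with other names. The annotated start of a microRNA is the 5′ end of its hairpin or of the mature RNA, not the start of the primary transcript.

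The embryos came from a transgenic Drosophila melanogaster line that stably expresses zld (also called vfl) with GFP at the C terminus, were of both sexes, and were collected at 0 to 24 hours of age. The source label names an insertion targeting zld. Chromatin was precipitated with an antibody against GFP according to the sample descriptions, while the antibody field reads vfl. There was 1 group with 2 biological replicates, numbered 2 and 3, so no test between conditions could be made, and a collection over the whole of embryogenesis mixes stages and tissues. Each replicate and the pooled reads had a relaxed list of 30000 peaks, read depth is unknown, and the control alignment was not analysed here.

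Long noncoding RNAs are transcribed and processed much like messenger RNAs but are not known to code for protein. Some act on chromatin, as roX RNAs do in dosage compensation, while others serve mainly as carriers of microRNAs or small nucleolar RNAs that are cut out of them. Antisense RNAs are read from the strand opposite a coding gene. Zelda is a zinc finger pioneer factor that makes early embryonic enhancers and promoters accessible at the start of zygotic transcription, and it binds CAGGTAG and related words. In fly embryos the microRNAs of the mir-309 cluster, which are known targets of Zelda, help to clear maternal messenger RNA.

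Windows of 101 bases centred on summits show what lay under these peaks. They are given on the plus strand of Release 6 (dm6), and capitals mark any of the 7 words searched on either strand. The first pair are the strongest peaks, and neither holds a searched word within 100 bp of the summit. The next 3 are thresholded peaks with CAGGTAG, whose reverse complement is CTACCTG. The window of lncRNA:CR45916, the host of mir-9a, is shown for its copies of CAGGTAA (reverse complement TTACCTG), and that of asRNA:CR44047 for TATCGATA.
lncRNA:CR44619, chrX:12751391-12751491, plus strand: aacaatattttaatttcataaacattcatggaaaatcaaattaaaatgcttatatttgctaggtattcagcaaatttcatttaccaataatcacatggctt
lncRNA:CR31044, chr3R:29214413-29214513, plus strand: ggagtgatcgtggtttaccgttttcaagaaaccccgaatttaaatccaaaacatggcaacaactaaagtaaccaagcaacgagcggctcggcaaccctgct
lncRNA:CR44677, chr3L:19556830-19556930, plus strand: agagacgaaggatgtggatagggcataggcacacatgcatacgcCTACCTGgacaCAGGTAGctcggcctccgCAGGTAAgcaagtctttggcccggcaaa
lncRNA:CR44718, chr3L:11237443-11237543, plus strand: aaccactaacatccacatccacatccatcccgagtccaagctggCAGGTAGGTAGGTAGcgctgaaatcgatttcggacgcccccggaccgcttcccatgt
lncRNA:CR45251, chr3L:11350129-11350229, plus strand: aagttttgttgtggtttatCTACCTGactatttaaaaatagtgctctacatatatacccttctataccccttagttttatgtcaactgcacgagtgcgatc
lncRNA:CR45916, chr3L:19562304-19562404, plus strand: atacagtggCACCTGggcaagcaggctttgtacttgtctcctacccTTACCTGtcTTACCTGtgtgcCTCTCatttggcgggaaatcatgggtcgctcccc
asRNA:CR44047, chr3R:20826774-20826874, plus strand: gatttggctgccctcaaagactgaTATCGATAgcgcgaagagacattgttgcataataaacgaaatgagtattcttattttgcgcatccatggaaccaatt

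The strongest peak was that of lncRNA:CR44619 (FBgn0265830), a gene between coding genes on X. Its summit at X:12751441 was 426 bp upstream of the annotated start and 5124 bp from the nearest coding start, that of CG4004. The signal, in the authors' units, was 662 in the pooled list, 410 in replicate 2 and 259 in replicate 3. It ranked 10 of 30000 in the pooled list, 13 in replicate 2 and 10 in replicate 3. The base composition there was low in GC, at 31.8%.

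The peak of lncRNA:CR31044 lay at 3R:29214463, 99 bp upstream of the start. That transcript spans mir-279, which limits the formation of CO2-sensing neurons, and its neighbour mir-996. The signal was 438 in the pooled list, 267 in replicate 2 and 171 in replicate 3, with ranks of 34, 35 and 31. The nearest coding start, that of eEF1gamma, was 5709 bp away. The 100 strongest pooled peaks held these 2 noncoding-start peaks and no other, or 2.00%, while over the whole list noncoding starts took between 1.84% and 3.20% of each range of ranks examined.

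The third in rank, lncRNA:CR31840 on 2L, had a pooled signal of 260 and differed more between replicates, with 179 in replicate 2 (rank 109) and 75.4 in replicate 3 (rank 325). Its summit was 19 bp downstream of the start. lncRNA:CR44676 on 3L followed Uhg4 in rank and had a pooled signal of 194, with 103 and 87.0 in replicates 2 and 3. lncRNA:CR43626, which carries mir-282, had 156 in the pooled list, 98.8 in replicate 2 and 68.5 in replicate 3, with the summit 306 bp upstream of the start. Both replicates ranked these last 2 peaks among their strongest 500.

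Several of the 20 strongest lay inside introns of coding genes or beside them. The gene lncRNA:CR46036 starts within osa, a subunit gene of the Brahma remodelling complex, and its peak had a pooled signal of 162, with 93.8 in replicate 2 and 73.3 in replicate 3. lncRNA:CR44478 starts within Socs36E, an inhibitor of JAK/STAT signalling, and had 145 in the pooled list, 80.2 in replicate 2 and 67.5 in replicate 3. A single TAGGTAG lay 84 bp from its summit. lncRNA:CR44331 starts within puc, the phosphatase that restrains JNK signalling, and had a pooled signal of 141. The signal of lncRNA:CR46102, within the lipophorin receptor gene LpR2, was 140, and that of lncRNA:CR44867, within beat-Ib, was 165. asRNA:CR44429, inside the juvenile hormone receptor gene gce and 557 bp from its start, had 133 in the pooled list, 57.8 in replicate 2 and 78.9 in replicate 3, so that here replicate 3 was the higher.

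Of the 20 strongest, 14 had the summit outside coding genes and 6 had it in an intron. Summits of 15 were upstream of the noncoding start, and 4 were within 100 bp of it. The rule leaves neighbours of coding promoters in the set, and 4 of the 20 had a coding start within 1000 bp. lncRNA:CR45668 was 614 bp from a start of Act5C, which encodes cytoplasmic actin, and had a pooled signal of 138. lncRNA:CR42657 was 658 bp from a start of nej, the gene of the CBP acetyltransferase, and had 145. Whether such peaks belong to the noncoding or the coding promoter was not tested. The remaining genes in the top 20 outside the right arm of the second chromosome were lncRNA:CR44917 at 147, asRNA:CR45999 at 138 and mir-275 at 131, whose summit was 431 bp upstream of the hairpin.

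**Figure D1:**
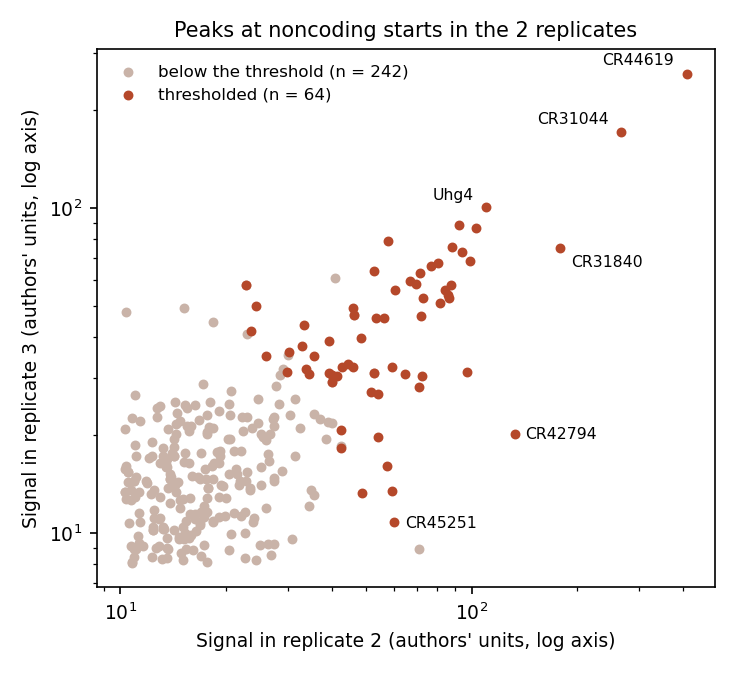
Signal of noncoding-start peaks in replicate 2 (x axis) and replicate 3 (y axis), in the authors' units on log axes, for the 306 peaks with a summit within 200 bp in both replicates; dark points are the 64 thresholded peaks. lncRNA:CR44619 and lncRNA:CR31044 stand highest in both replicates, and the labelled points of lncRNA:CR42794 and lncRNA:CR45251 (its thresholded peak) have 133 and 60.3 in replicate 2 but 20.1 and 10.8 in replicate 3.

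The replicates matched at these peaks about as often as over the whole list. A relaxed summit lay within 200 bp in both replicates for 306 of the 669 peaks, or 45.7% (95% Wilson interval 42.0 to 49.5), against 44.9% of all relaxed peaks, 61.9% of coding-start peaks and 37.0% of peaks near neither. The strongest 2876 of both replicates held a match for 46 of the 669, or 6.88%, against 6.81% of all relaxed peaks. A further 44 peaks had no match in either replicate. All 64 thresholded peaks were matched in both, and 42 of them fell in the strongest 2876 of both, 11 in those of replicate 2 alone and 11 in those of replicate 3 alone. The thresholded list is labelled IDR, a cut on agreement between replicates, but its peaks were simply the 2876 strongest of the pooled list. That list was made from both replicates, so a match in both is no independent support for these peaks. The same counts were not made over all 2876 thresholded peaks, so they mark no trait of noncoding starts. Across the 306 matched peaks Spearman's rho between the replicates' signals was 0.567, and across the 64 it was 0.478. Each peak was matched to the strongest replicate summit within 200 bp, not the nearest. Those points share the pooled list they were drawn from, and 78 of the 669 peaks shared a replicate's matched summit with another of them.

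Among the 64 thresholded peaks, the 5 with the largest difference in rank between replicates had the higher signal in replicate 2. lncRNA:CR42794 had a signal of 133 in replicate 2 and 20.1 in replicate 3, with ranks of 205 and 6015. For the thresholded peak of lncRNA:CR45251 the signals were 60.3 and 10.8 and the ranks 1104 and 19026. lncRNA:CR43857, which carries mir-275, had 59.3 and 13.5, with ranks of 1147 and 12787. The other two were lncRNA:CR45645 and lncRNA:CR45888, at ranks 13285 and 9188 in replicate 3. Below the threshold there were larger differences, in both directions. A second peak of lncRNA:CR45251 had a signal of 10.4 in replicate 2 and 47.9 in replicate 3, with ranks of 29201 and 959. One of lncRNA:CR45355 had 70.8 and 8.91, with ranks of 818 and 25852. The replicate 2 summit behind that 70.8 was also the match of the thresholded lncRNA:CR45355 peak, which had 28.2 in replicate 3. The difference at the weaker peak thus partly reflects 1 summit being matched to 2 peaks. Both of these examples below the threshold were picked after their values were seen. The peak counts behind the summary were steadier, since the rule found 660 peaks in the list of replicate 2 and 677 in that of replicate 3.

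The share of strong peaks placed noncoding starts between the other classes. In the pooled list 64 of 669 were thresholded, or 9.57% (95% Wilson interval 7.56 to 12, counting error only). At coding starts the share was 20% (19.2 to 20.9), and near neither kind of start it was 4.76% (4.48 to 5.07). With each replicate's own list and its strongest 2876 peaks, the share at noncoding starts was 9.55% in replicate 2 and 9.60% in replicate 3, a mean of 9.57% ± 0.0394 (SD, n = 2). Coding starts had 20.9% and 20.1%, and peaks near neither had 4.80% and 4.69%. The order of the classes was thus the same in both replicates, and the share at noncoding starts lay at the background of the whole list. A separate set of 367 peaks lay within 500 bp of both a coding and a noncoding start, and 18.3% of those (14.6 to 22.5) were thresholded. The median pooled signal was 23.6 at noncoding starts, 31.3 at coding starts and 21.9 near neither.

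**Figure D2:**
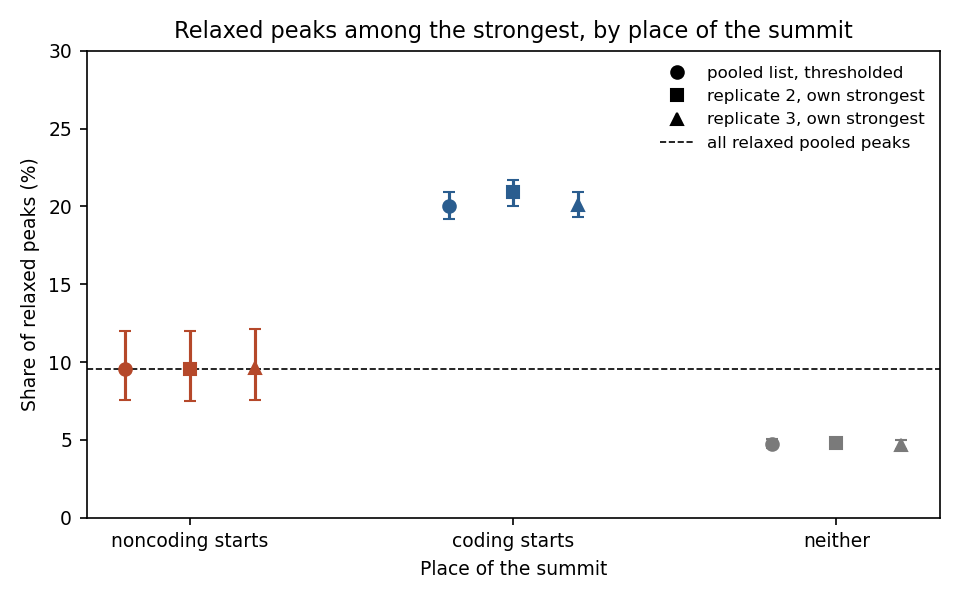
Share of relaxed peaks that belong to the strongest 2876 (y axis, percent), for summits at noncoding starts, at coding starts and near neither (x axis), with 95% Wilson intervals. Circles are the pooled list, squares replicate 2 and triangles replicate 3, and the dashed line is the 9.59% of all relaxed pooled peaks, on which the noncoding starts lie.

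Where the summit fell within or outside coding genes went with the share of strong peaks. Of 87 noncoding-start summits in exons of coding genes 0 were thresholded (upper Wilson bound 4.23%), and 0.760% of exonic peaks near neither kind of start were. In introns 22 of 190 noncoding-start peaks were thresholded, or 11.6% (7.77 to 16.9), beside 6.15% (5.72 to 6.62) of peaks near neither. Outside coding genes 42 of 392 were, or 10.7% (8.02 to 14.2), beside 5.63% (5.0 to 6.34). Peaks at noncoding starts lay outside coding genes in 58.6% of cases and peaks near neither in 22.7%. By distance to the nearest coding start, 8.27% of noncoding-start peaks and 5.79% of those near neither were thresholded from 501 to 1000 bp, and 9.40% and 5.40% from 1001 to 2000 bp. From 2001 to 5000 bp the shares were 10.2% (6.53 to 15.5) and 4.55% (4.03 to 5.14), and from 5001 to 10000 bp they were 12.1% (7.07 to 20) and 4.08% (3.47 to 4.80). Beyond 10000 bp they were 8.11% and 3.80%. Intervals overlapped in the first pair of ranges and in the last, and did not overlap in those between.

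Gene class was described in the same way. Thresholded peaks were 53 of 487 at lncRNA genes, or 10.9% (8.42 to 14), 7 of 112 at asRNA genes, or 6.25% (3.06 to 12.3), and 3 of 51 at microRNA genes, or 5.88% (2.02 to 15.9). These intervals overlapped, and each included the 9.59% of all relaxed peaks. The strongest peak of the asRNA class was that of asRNA:CR45999, and the strongest microRNA peak was that of mir-275. Among the noncoding genes with other names none of 14 peaks was thresholded, and the strongest, that of sncRNA:CR43701, had a pooled signal of 45.7. By the place of the start, 42 of 396 peaks at genes between coding genes were thresholded, or 10.6%. For starts inside a coding gene the shares were 15 of 190, or 7.89%, on the other strand and 7 of 78, or 8.97%, on the same strand, again with intervals that included 9.59%.

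Counted by gene, 2751 noncoding genes had at least 1 start more than 500 bp from every coding start and are called reachable. Of these, 631 had a relaxed peak, or 22.9% (21.4 to 24.5), and 68 had a thresholded one, or 2.47% (1.95 to 3.12). The same counts over 13968 coding genes were 55.7% and 17.6%. lncRNA genes had 24.3% and 3.19%, asRNA genes 25.6% and 1.22%, and microRNA entries 18.5% and 1.37%. A microRNA hairpin and its mature RNAs can each be an entry, so 1 locus can count more than once. Only 3 thresholded peaks had a microRNA start within 500 bp, yet they gave 9 microRNA entries with a thresholded peak. The counts over all noncoding genes, here and below, hold such repeats, and their intervals treat entries as independent. Most genes with a peak, 554 of 668, had a single one. The gene with the most was lncRNA:CR43334, which carries bantam, a microRNA that promotes growth and blocks cell death, with 4 relaxed peaks of signal 40.2, 40.0, 33.2 and 28.3 and none thresholded. The 2 strongest of those were matched to a summit of replicate 3 with a signal of 51.4, and replicate 2 had no relaxed summit within 200 bp of either. Others with 3 peaks were lncRNA:CR43626, lncRNA:CR44161, lncRNA:CR44730, lncRNA:CR45361, lncRNA:CR45919, lncRNA:CR46006 and lncRNA:Hsromega.

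Around noncoding starts the strong summits formed a broad rise and no sharp point. Counting only bases more than 500 bp from coding starts, thresholded summits had a density of 22.7 per Mb within 100 bp of a noncoding start, 31.3 from 101 to 250 bp and 29.7 from 251 to 500 bp. It was 19.3 per Mb from 501 to 1000 bp, 13.1 from 1001 to 2000 bp and 6.98 beyond 10000 bp. The innermost value rests on 11 summits, and the replicates differed there, with 16.5 per Mb in replicate 2 and 33.0 in replicate 3. Around coding starts the same measure was 275 per Mb within 100 bp and 36.8 from 251 to 500 bp. From 501 to 1000 bp it was 18.8, close to the value at that distance from noncoding starts.

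**Figure D3:**
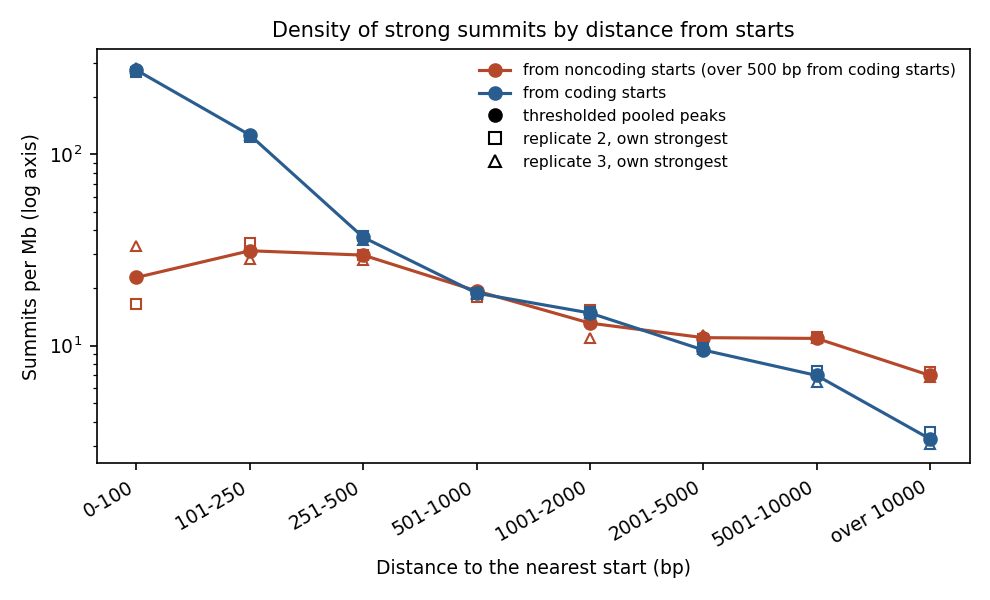
Thresholded summits per Mb (y axis, log) by distance to the nearest start (x axis), for noncoding starts over bases more than 500 bp from coding starts and for coding starts. Filled points joined by lines are the pooled list, open squares and triangles the strongest 2876 of replicates 2 and 3; the coding line falls from 275 to 36.8 per Mb within 500 bp while the noncoding points stay between 16.5 and 34.3.

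The summit lay within 100 bp of the noncoding start in 161 of 669 peaks, or 24.1% (21.0 to 27.4), where a flat spread over the window would give 20.1%. Among the 64 thresholded peaks it was 11, or 17.2% (9.88 to 28.2). At coding starts the shares were 44.4% of all and 54.0% of thresholded peaks. The median distance was 224 bp at noncoding and 120 bp at coding starts. Thresholded summits lay upstream of the start in 64.1% of noncoding cases (51.8 to 74.7) and in 83.1% of coding cases, while over all 669 peaks 51.6% were upstream.

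**Figure D4:**
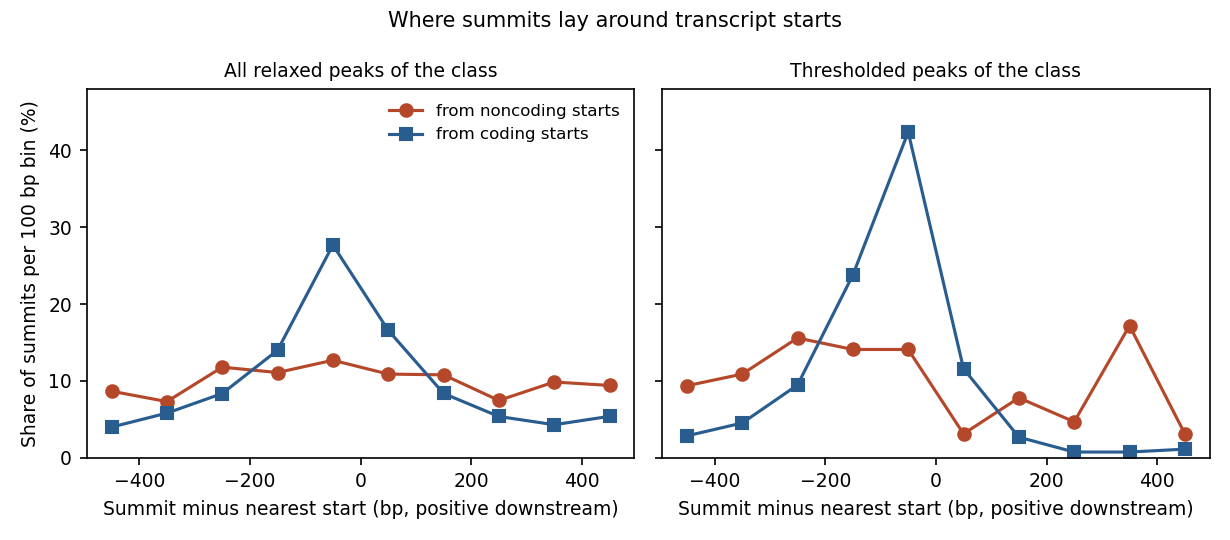
Distance of the summit from the nearest start in the direction of transcription (x axis, bp, positive downstream) as a share of summits per 100 bp bin (y axis, percent), for all relaxed peaks of each class (left) and for thresholded peaks (right). Coding-start summits gather just upstream of the start, with 42.4% of thresholded summits in the last 100 bp, and noncoding-start summits do not.

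Words of the Zelda family were scarce. At noncoding starts, 20 of 669 summits had CAGGTAG at 100 bp or less, or 2.99% (1.94 to 4.57), beside 1.98% of all relaxed peaks and 1.64% of flanks centred 1000 bp away. In the 64 thresholded peaks it was 5, or 7.81% (3.38 to 17.0), beside 2.02% of all thresholded peaks. The share was 1.35% at thresholded coding-start peaks, 2.93% (2.03 to 4.20) at those near neither and 2.34% (0.800 to 6.66) in the flanks of the 64, and the last 2 intervals overlapped that of the noncoding starts. With the 669 split by signal into 4 parts of about equal size, strongest first, CAGGTAG was found in 8, 7, 4 and 1 peaks. The same split was not made over all relaxed peaks, so these counts mark no trait of noncoding starts. The share was 1.82% in the list of replicate 2 and 3.69% in that of replicate 3. TAGGTAG was found in 6 peaks, or 0.897%, against 1.05% of all relaxed peaks, and CAGGTAA in 11, or 1.64%, against 2.01%. In the lists of replicates 2 and 3, TAGGTAG was at 1.36% and 1.48% and CAGGTAA at 1.67% and 3.40%, so neither word's place relative to the background is settled. At least 1 of these 3 words lay in 35 peaks, or 5.23%, beside 4.83% of all relaxed peaks. These words can overlap one another.

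The strongest peak with CAGGTAG was that of lncRNA:CR44677 at 3L:19556880, shown among the windows, with a pooled signal of 86.4, 46.2 in replicate 2 and 46.7 in replicate 3. It held 2 copies, the nearer 3 bp from the summit, and 1 CAGGTAA. That of lncRNA:CR44718 had a pooled signal of 64.9 and 1 CAGGTAG, 3 bp from the summit, overlapping 2 copies of TAGGTAG. For lncRNA:CR45251, at 63.9, the copy was 28 bp away. The other two of the strongest 5 were lncRNA:CR44763 at 82.1 and asRNA:CR46194, which carries mir-281-1 and mir-281-2, at 72.0. None of the 20 strongest peaks held CAGGTAG. The word was near 2.02% of all thresholded peaks, so its absence from 20 peaks says little.

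TATCGATA and GGTCACAC were rare at noncoding starts, as they were near neither kind of start. TATCGATA, bound by DREF and BEAF-32, lay near 3 of 669 summits, or 0.448% (0.153 to 1.31). It lay near 0.503% of peaks near neither, 2.39% of all relaxed peaks and 6.63% of coding-start peaks. The 3 at noncoding starts were those of asRNA:CR44047 at a pooled signal of 29.7, lncRNA:CR45596 at 23.4 and lncRNA:CR43256 at 17.9, none of them thresholded. GGTCACAC, the M1BP word, lay near 4, or 0.598% (0.233 to 1.53). The share was 0.359% near neither, 1.93% of all relaxed and 5.42% of coding-start peaks. GAGAG, the GAGA factor word, was near 170, or 25.4%, beside 24.0% of all relaxed peaks and 21.7% of flanks. CACCTG, a Snail-type word that shares letters with the Zelda words without being contained in them, was near 51, or 7.62%, beside 8.28%. Of the 64 thresholded peaks 40 held none of the 7 words, and such absence covers only these letters in this window. The same count was not made over all thresholded peaks or all relaxed peaks. Whether 40 of 64 differs from the background is therefore not known. Mean GC within 100 bp of the summit was 43.4%, and 41.4% in flanks. Near neither kind of start the values were 42.7% and 41.7%, at coding starts 41.7% and 44.2%, and over all relaxed peaks 42.4% and 42.4%.

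**Figure D5:**
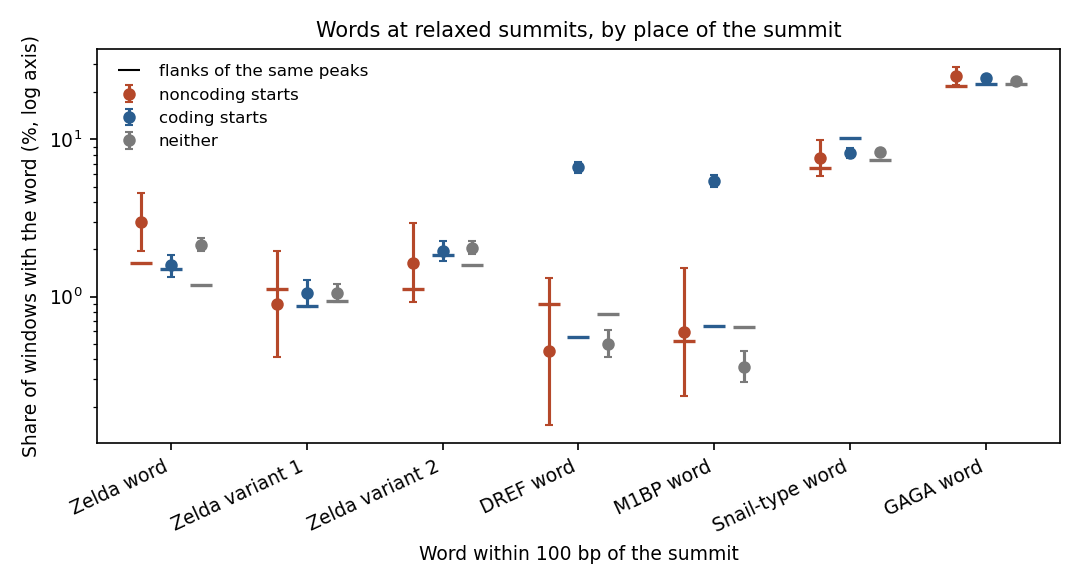
Share of windows with each searched word within 100 bp of the summit (y axis, percent, log), with 95% Wilson intervals, for peaks at noncoding starts, at coding starts and near neither; dashes are the flanks of the same peaks. The Zelda word is CAGGTAG, variants 1 and 2 are TAGGTAG and CAGGTAA, and the DREF and M1BP words are at 6.63% and 5.42% of coding-start peaks but below 1% elsewhere.

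Of 39 noncoding genes that span a microRNA hairpin or were named as hosts, 23 had a relaxed peak at a start and 6 a thresholded one. The list was not limited to reachable genes, and over all 3289 noncoding genes the shares were 20.3% and 2.16%. In this list mir-ban and mir-bft are microRNA genes themselves, and the transcripts that carry them were counted as well. Besides lncRNA:CR31044 and lncRNA:CR43626, these were lncRNA:CR43650, lncRNA:Hsromega, lncRNA:CR43857 and asRNA:CR46194. lncRNA:CR43650 carries mir-8, the fly member of the miR-200 family, and its stronger peak had a signal of 116 in the pooled list, 71.6 in replicate 2 and 46.5 in replicate 3. Hsromega, the heat-inducible RNA of the omega speckles, had 76.8 in the pooled list, 52.8 in replicate 2 and 31.0 in replicate 3. Just short of the threshold was lncRNA:CR43651, the host of the cell death suppressor mir-14, with 59.7 in the pooled list, 18.4 in replicate 2 and 44.5 in replicate 3. A summit 127 bp upstream of the mir-14 hairpin itself was thresholded, with 62.8 in the pooled list, 29.9 in replicate 2 and 31.2 in replicate 3. Weaker peaks lay at lncRNA:CR45361, the host of the muscle microRNA mir-1, with a best signal of 33.7, and at lncRNA:CR42651, the host of mir-10, with 31.5.

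The start of lncRNA:CR44504, from which the mir-309 cluster is cut, had no relaxed summit within 500 bp. It lies 589 bp from a coding start, so a peak there could have been kept. lncRNA:let7C, which carries the developmental timing microRNA let-7, also had none. Of the 39 genes listed, 16 had no peak. Among these were the hairpin genes mir-ban and mir-bft, whose carriers lncRNA:CR43334 and lncRNA:CR43314 did have peaks. A peak list with a fixed length of 30000 shows no level for such genes.

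The locus of mir-9a, a microRNA that limits the number of sensory organ precursors, was singled out after its values were seen. On 3L, 7 peaks at the starts of 4 noncoding genes lay within 8487 bp, all with CG9300 as the nearest coding gene. lncRNA:CR44676 and lncRNA:CR44677 were thresholded there, at pooled signals of 194 and 86.4. A second peak of lncRNA:CR44677 had 32.2, the 2 peaks of the host lncRNA:CR45916 had 36.9 and 33.7, and the 2 nearest to mir-9a itself had 24.3 and 21.0. The weaker summit of lncRNA:CR45916 had 3 copies of CAGGTAA, the nearest 1 bp from the summit.

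Of the snoRNA host genes, whose introns release small nucleolar RNAs, 7 of 8 names were matched and 5 had a peak, 1 of them thresholded. These too were not limited to reachable genes, and over all 3289 noncoding genes the shares were 20.3% and 2.16%. Uhg4 was the fourth strongest of all 669, with a pooled signal of 209, 110 in replicate 2 and 101 in replicate 3, its summit 75 bp upstream of the start and 540 bp from the coding start of Boot. Uhg8 had 57.5, with 34.3 in replicate 2 and no summit within 200 bp in replicate 3. Uhg2 had 35.0, Uhg1 31.8 and Uhg3 21.8, none of them thresholded. The summit at Uhg5 was within 500 bp of a coding start and so was not kept, at a pooled signal of 56.1, with 26.7 in replicate 2 and 26.6 in replicate 3. Uhg7 had no peak.

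Of the dosage compensation RNAs, which guide the complex that raises transcription of the male X, roX1 had 2 relaxed peaks and roX2 none. The stronger roX1 summit had a pooled signal of 26.2, with 20.2 in replicate 3 and no summit within 200 bp in replicate 2, and a CAGGTAG 26 bp away. In the bithorax complex, where noncoding transcripts cross the control regions of Hox genes, all 3 matched genes had a relaxed peak and none a thresholded one. Over all reachable noncoding genes the shares were 22.9% and 2.47%. The pooled signals were 41.6 at iab8, 33.2 at iab4 and 17.1 at bxd. iab8 had 34.1 in replicate 3 and no summit within 200 bp in replicate 2, and the stronger bxd summit was matched in neither.

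Few other noted noncoding genes had a peak. The piRNA cluster transcript flam, which silences retrotransposons in the ovary, had a pooled signal of 48.2, with 27.2 in replicate 2 and 22.4 in replicate 3. It was the only 1 of 28 matched repeat-related genes with a peak, and the others were all Su(Ste) copies on Y, where the relaxed list had no peak. Of 6 genes known from nerve, muscle or behaviour, sphinx had a pooled signal of 16.1 with no match in either replicate, and yar, CRG, acal, cherub and noe had none, beside 22.9% of reachable noncoding genes with a relaxed peak. The structured RNAs 7SL, RNase P and RNase MRP had no peak by the rule, and the summit nearest to RNase MRP was just outside the limit, at 503 bp with a signal of 28.0.

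By chromosome arm, 12 of 70 peaks on X were thresholded, or 17.1% (10.1 to 27.6), where 9.90% of all relaxed peaks on X were. On 2R it was 17 of 111, or 15.3% (9.79 to 23.2), beside 10.2%. The shares were 8.05% on 2L beside 10.2% of all relaxed peaks there, 5.62% on 3L beside 8.76% and 8.28% on 3R beside 9.69%. On 4, 0 of 9 peaks were thresholded, beside 1.5%. Intervals of all arms overlapped. Peaks on 2R in the top 20 besides Uhg4 were lncRNA:CR44339 at a pooled signal of 181, 4159 bp from the Polycomb group gene Psc, lncRNA:CR44810 at 133, 4560 bp from the border cell regulator slbo, and asRNA:CR45281 at 132.

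The peaks beside the 500 bp limits had pooled signals from 17.5 to 60.1, the highest just short of the lowest thresholded signal of 61.8. Just inside the limit from the noncoding start were lncRNA:CR44022 at 498 bp, lncRNA:CR44161 at 496 bp and lncRNA:CR44775 at 495 bp, with pooled signals of 60.1, 28.2 and 33.8. Just outside it were RNaseMRP:RNA at 503 bp and 2 peaks of asRNA:CR45806 at 504 bp, with 28.0, 29.4 and 20.3. At the limit from coding starts, lncRNA:CR45327, lncRNA:CR45364 and mir-4912 were kept at 501, 502 and 502 bp, with 17.5, 30.3 and 21.8. lncRNA:CR32027, lncRNA:CR45473 and lncRNA:CR43493 were left out at 497, 485 and 481 bp, with 17.8, 33.3 and 38.1. None of these 12 was thresholded.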

How the data were processed

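Zelda ChIP-seq was measured in 2 replicates of 1 group. The deposited peak lists hold the authors' signal value (column 7) and −log10 q-value per peak; the relaxed lists are per replicate and for pooled reads, and the thresholded list was made from the relaxed ones, per the text deposited with the files. The thresholded list is labelled as the optimal one by IDR, a cut on agreement between replicates. No source used here names the aligner, the peak caller or the value of that cut. The −log10 q reached its ceiling of 3.94 at 86 of the 669 peaks, so peaks were ranked by signal, within a list only. Thresholded peaks were the 2876 strongest of the pooled list, from 61.8 up. Depth is unknown, and control reads and dm3 lists were not analysed here.

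Gene models were Ensembl release 115 (BDGP 6.54), and sequence was NCBI Release 6, whose arms have dm6 lengths. Positions are counted from 1. Words were searched on both strands. Replicate values given for a peak are those of the strongest replicate summit within 200 bp. The 95% Wilson intervals treat peaks, or gene entries, as independent and cover counting error alone. No test was run. The peaks and gene lists were chosen with earlier results of these data known. Genes were named by rule: the 20 strongest, the 5 strongest with CAGGTAG and with TATCGATA, the 5 genes with most peaks (all those tied), the 3 at each side of each limit, the 5 largest rank differences, the strongest of each class, and gene lists, where Uhg6, 7SK and 20A were not matched. The classification of summits, word search and matching recovered every planted case in simulated data. Alternatives were other windows, distances, words' windows, gene sets and each replicate alone. Python 3.11.15, numpy 2.4.6 and matplotlib were used.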

Additional observations from a re-analysis of the deposited data

How the results depend on the processing

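No paired analysis was possible because there was 1 group, so no groups share replicate numbers. With each replicate's own list, the count of noncoding-start peaks ran from 660 to 677, the thresholded share from 9.55% to 9.60%, the share within 100 bp of the start from 21.5% to 22.6%, the share matched in the other replicate from 45.3% to 46.1%, CAGGTAG from 1.82% to 3.69%, TATCGATA from 0.591% to 0.909%, GC from 42.1% to 43.5% and the share of noncoding genes with a peak from 22.9% to 24.2%. The spread between the replicates was 0.0394 for the thresholded share and 1.33 for CAGGTAG (SD, n = 2, percentage points). Noncoding starts within 250 bp gave 373 peaks, 8.58% thresholded, 46.6% matched and 14% of genes; within 1000 bp they gave 1213 peaks, 8.57%, 43.9% and 35.1%. With every coding start more than 1000 bp away the thresholded share was 9.89%, the matched share 45.0% and the gene share 21.7%. Leaving out small structured RNA and microRNA starts gave 9.97% thresholded, 46.5% matched and 18.1% of genes, and transcripts of 200 nt or more alone, chosen after seeing the data, gave 10%, 46.4% and 24.2%. In the stronger part of the thresholded list were 4.63% of peaks. Summits shared within 100 bp or 400 bp gave 32.6% and 57.5% matched, the gene's 5′ end alone put 22.3% within 100 bp, and windows of 50 bp to each side held CAGGTAG in 1.64%. Of 108 values under 13 settings, 61 stayed within the spread between replicates or, for counts, within 1.5 times, and 47 moved. Flanks centred 2000 bp away held CAGGTAG in 1.35%. Depth is unknown, so a start without a peak cannot be told from one too weak for a list of fixed length.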
